A study of Mus musculus with 8 samples.

Results

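The 232 genes described here are the microRNA genes of the mouse that lay beside or under a peak of the histone variant H2A.Z in control testes at postnatal day 14. A gene was taken when RefSeq lists it as a microRNA and a control peak lay within 1 kb of either of its ends, which held for 232 of 1228 microRNA genes (18.9%, exact 95% interval 16.7 to 21.2%). The same window found a control peak at 43.4% of the 49997 RefSeq genes of all kinds, at 67.6% of protein-coding, 54.0% of tRNA, 36.8% of lncRNA, 8.57% of snRNA and 7.99% of snoRNA genes. The control peaks chose the members, so their number and the widths of their control peaks are descriptions and carry no test.

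Dissociated whole testes were used for ChIP-seq, in which DNA bound to H2A.Z is precipitated with an antibody and sequenced. The 8 libraries form 4 groups with 2 replicates in each: H2A.Z immunoprecipitates and inputs from control mice, and the same from mice whose genotype is labelled Znhit1-CKO, which the protocol writes as Znhit1-sKO. Not given in the sources used here are the Cre line, the alleles of the control mice and the cells that lost Znhit1. Several kinds of region were deposited, with 1 list each: control peaks (48752), Znhit1-CKO peaks (31156) and differential regions between the genotypes (24367), which carry no direction.

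Each list gives positions alone, so a value below is the presence or the width of a peak. With 1 list per genotype there is no replicate error, and no difference between genotypes was tested; the intervals in brackets are exact 95% intervals that cover counting error only, and neighbouring genes on 1 peak are not independent. A testis holds many cell types, and fewer cells of a type and less H2A.Z per cell cannot be told apart in these lists. The lists hold no RNA levels, so whether any of these microRNAs was expressed, and whether the tissue carries its defining markers, was not tested.

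A microRNA is cut from a longer primary transcript as a hairpin by the nuclear enzyme DROSHA with DGCR8, trimmed in the cytoplasm by DICER1 and loaded into an Argonaute protein, which it guides to messenger RNAs through a short stretch near its 5′ end called the seed. Many hairpins lie in introns of host genes and use the host's promoter, and others are made from transcripts of their own, often several hairpins from 1 transcript. H2A.Z replaces H2A in nucleosomes that flank transcription starts and enhancers, and ZNHIT1 is a subunit of the SRCAP complex that carries out this exchange. In the testis, Dicer1 is needed for normal sperm formation, and the related miR-34 and miR-449 families are known to be abundant in meiotic and later male germ cells.

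The mature microRNAs below are products of the families described further on, shown so that their seeds (bases 2 to 8, in capitals) can be compared. They are written 5′ to 3′ and come from RefSeq on GRCm38.p6, the assembly whose primary coordinates are those of mm10. The miR-9, miR-34 and miR-449, miR-193, miR-148 and miR-152, miR-196 and miR-199 seeds each occur at separate member loci, while the miR-290 cluster arms come from 1 locus, as do miR-132 and miR-212, and miR-137-3p and let-7i-5p from 1 member gene each.
mmu-miR-9-5p: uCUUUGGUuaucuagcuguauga
mmu-miR-34b-5p: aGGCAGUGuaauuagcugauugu
mmu-miR-449c-5p: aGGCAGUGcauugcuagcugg
mmu-miR-290a-3p: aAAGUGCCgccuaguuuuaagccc
mmu-miR-291a-3p: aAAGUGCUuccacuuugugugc
mmu-miR-294-3p: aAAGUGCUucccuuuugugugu
mmu-miR-196a-5p: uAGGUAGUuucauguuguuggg
mmu-miR-196b-5p: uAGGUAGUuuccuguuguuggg
mmu-miR-193a-3p: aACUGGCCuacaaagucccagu
mmu-miR-193b-3p: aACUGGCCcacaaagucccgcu
mmu-miR-148a-3p: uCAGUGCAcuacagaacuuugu
mmu-miR-152-3p: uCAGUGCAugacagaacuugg
mmu-miR-199a-3p: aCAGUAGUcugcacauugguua
mmu-miR-132-3p: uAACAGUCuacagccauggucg
mmu-miR-212-3p: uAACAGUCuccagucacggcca
mmu-miR-137-3p: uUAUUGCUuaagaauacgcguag
mmu-let-7i-5p: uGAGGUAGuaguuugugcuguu

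miR-34b-5p and miR-449c-5p share the seed GGCAGUG, miR-193a-3p and miR-193b-3p share ACUGGCC, miR-148a-3p and miR-152-3p share CAGUGCA, and miR-132-3p and miR-212-3p share AACAGUC. RefSeq sequences were found for 213 of the 232 members, 211 of them with a mature arm, and these gave 335 mature sequences with 304 different seeds.

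The promoters below, from 250 bases before to 50 bases after a RefSeq transcription start, are shown because a member's control peak covers the start and because 2 of these peaks had no Znhit1-CKO peak and 1 did. They are the starts of noncoding genes that enclose most of the miR-290 cluster (D7Ertd143e, chr7:3218534-3218833, plus strand) and Mir9-1 (Gm3764, chr3:88214232-88214531, plus strand), and the start of Gm33457 beside Mir2861 and Mir3960 (chr2:32713060-32713359, plus strand). Each is written 5′ to 3′ with the CG dinucleotides in capitals.
D7Ertd143e: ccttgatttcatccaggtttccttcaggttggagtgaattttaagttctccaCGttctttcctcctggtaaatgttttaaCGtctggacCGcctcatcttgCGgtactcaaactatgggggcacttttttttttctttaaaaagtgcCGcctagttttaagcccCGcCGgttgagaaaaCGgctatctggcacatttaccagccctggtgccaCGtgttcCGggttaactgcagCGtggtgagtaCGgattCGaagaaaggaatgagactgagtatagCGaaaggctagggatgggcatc
Gm3764: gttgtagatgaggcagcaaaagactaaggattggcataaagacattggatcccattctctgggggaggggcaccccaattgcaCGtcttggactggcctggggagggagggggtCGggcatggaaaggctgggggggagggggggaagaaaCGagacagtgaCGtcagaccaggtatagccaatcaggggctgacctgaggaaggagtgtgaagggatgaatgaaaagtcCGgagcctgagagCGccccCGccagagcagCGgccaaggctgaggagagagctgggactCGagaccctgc
Gm33457: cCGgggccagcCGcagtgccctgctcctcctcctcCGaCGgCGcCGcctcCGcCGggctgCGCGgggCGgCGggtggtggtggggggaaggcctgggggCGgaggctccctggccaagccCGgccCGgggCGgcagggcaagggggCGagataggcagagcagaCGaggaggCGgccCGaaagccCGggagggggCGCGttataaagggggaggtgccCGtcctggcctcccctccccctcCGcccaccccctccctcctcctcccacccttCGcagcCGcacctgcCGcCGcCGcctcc

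The D7Ertd143e promoter held 14 CG, the Gm3764 promoter 9 and the Gm33457 promoter 30. The D7Ertd143e window also holds the hairpin of Mir290a (chr7:3218626-3218708), which lies upstream of the start and outside D7Ertd143e. D7Ertd143e encloses the 6 members of the cluster from Mir291a to Mir294, and not Mir290a or Mir290b.

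Of the 232 microRNA genes with a control peak, 160 also had a Znhit1-CKO peak within 1 kb (69.0%, 62.6 to 74.9%) and 72 had none (31.0%, 25.1 to 37.4%). Among all RefSeq genes with a control peak, 78.7% had a Znhit1-CKO peak and 21.3% had none. The share with a Znhit1-CKO peak was 88.5% for protein-coding genes, 82.8% for tRNA genes, 74.4% for snRNA genes, 68.2% for snoRNA genes and 65.0% for lncRNA genes. The value for microRNA genes thus lay below those of protein-coding and tRNA genes, and its interval includes the values for snRNA, snoRNA and lncRNA genes. With each microRNA locus counted once the share was 73.4% (66.7 to 79.4%). That interval includes the values for all, snRNA and snoRNA genes and lies above that for lncRNA genes. The other kinds were not counted by locus. A differential region lay within 1 kb of 118 members (50.9%, 44.2 to 57.5%), against 60.1% of all genes with a control peak, 62.8% of protein-coding, 54.6% of lncRNA, 41.1% of snoRNA, 38.4% of snRNA and 32.8% of tRNA genes. Members with and without a Znhit1-CKO peak had a differential region in similar shares, 80 of 160 (50%, 42.0 to 58.0%) and 38 of 72 (52.8%, 40.7 to 64.7%).

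**Figure D1:**
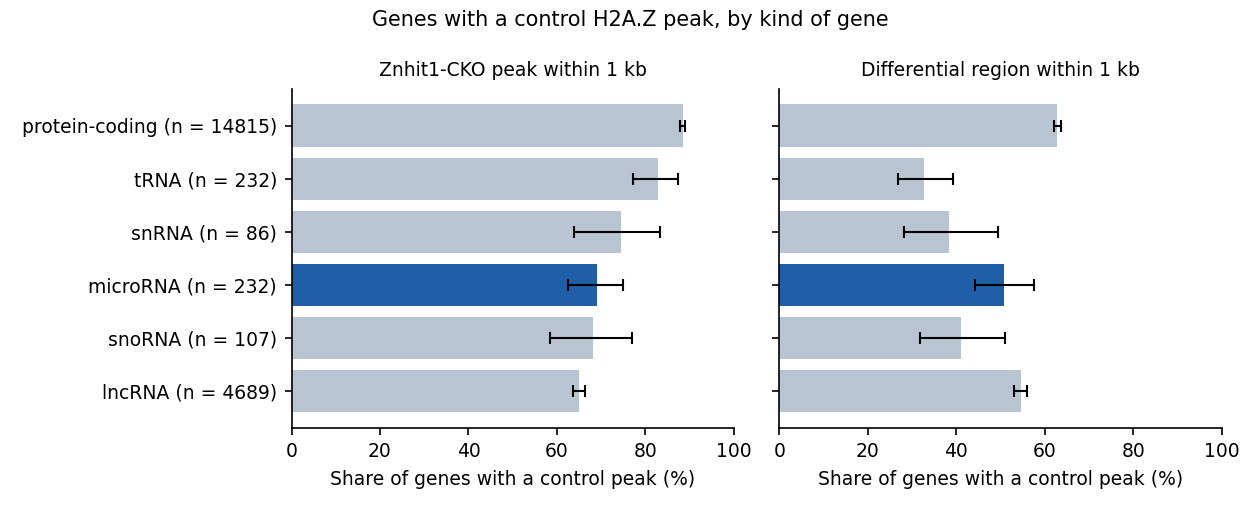
Share in percent of genes with a control peak that had a Znhit1-CKO peak within 1 kb, and share with a differential region, for each kind of RefSeq gene, with exact 95% intervals. MicroRNA genes stand at 69.0% and 50.9%, protein-coding genes at 88.5% and 62.8%.

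Position relative to the peak and to other genes went with this share. The hairpin itself overlapped a control peak in 150 members (64.7%), and 119 of these had a Znhit1-CKO peak (79.3%, 72.0 to 85.5%). The other 82 hairpins lay beside a peak, at a median gap of 472 bp, and 41 of them had a Znhit1-CKO peak (50%, 38.7 to 61.3%). The window itself lowers this second share, because a Znhit1-CKO peak on the same control peak can lie beyond 1 kb of such a hairpin. This was so for 6 members counted as having none, all with hairpins beside a peak. Peak width was not matched in these comparisons. Members within 1 kb of a protein-coding gene's end numbered 95, and 80 of them had a Znhit1-CKO peak (84.2%, 75.3 to 90.9%). Away from such ends, 80 of 137 did (58.4%, 49.7 to 66.7%). Inside each of these groups the order by hairpin position was the same: near gene ends 71 of 78 hairpins in a peak (91.0%) and 9 of 17 beside one had a Znhit1-CKO peak, and away from gene ends 48 of 72 (66.7%) and 32 of 65 (49.2%) did. These groups go by the distance of the microRNA gene, and some members away from gene ends have a control peak at one. Grouped by the control peak, 104 of 132 members with one at a protein-coding gene's end (78.8%) had a Znhit1-CKO peak. Of the 100 without, 56 did (56.0%).

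Host genes were common among the members. A protein-coding gene enclosed 139 of them (59.9%), a lncRNA gene alone another 25 (10.8%), and 68 lay in no such gene (29.3%). Together 164 members had a host (70.7%, 64.4 to 76.5%), against 946 of all 1228 microRNA genes (77.0%). Where RefSeq gave both strands, 108 of 130 hosted members were read from the same strand as a host (83.1%, 75.5 to 89.1%). A Znhit1-CKO peak lay at 101 of the 139 members inside protein-coding genes (72.7%, 64.5 to 79.9%), at 14 of the 25 inside lncRNA genes alone (56.0%, 34.9 to 75.6%) and at 45 of the 68 with no host (66.2%, 53.7 to 77.2%), and these intervals overlap. Inside protein-coding genes the share was 55 of 65 within 1 kb of a coding gene's end (84.6%) and 46 of 74 farther away (62.2%). A peak under an intronic hairpin close to its host's start cannot be told apart from the host's own peak.

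The 232 members share 224 distinct control peaks, of which 123 (54.9%) also lay within 1 kb of a protein-coding gene's end. These peaks had a median width of 1201.5 bp (1049 to 1312 bp, quartiles 694.75 and 1668 bp, range 215 to 3627 bp), against 742 bp over all control peaks and 1331 bp over control peaks at protein-coding gene ends. Member peaks at protein-coding gene ends had a median of 1493 bp and those elsewhere 872 bp, each above the median of all control peaks in the same position (1331 and 595 bp). A Znhit1-CKO peak overlapped 163 of the 224 (72.8%, 66.4 to 78.5%), against 49.3% of all control peaks. At protein-coding gene ends the shares were 109 of 123 (88.6%, 81.6 to 93.6%) against 82.0%, and elsewhere 54 of 101 (53.5%, 43.3 to 63.5%) against 34.5%. A differential region overlapped 114 of the 224 (50.9%), against 48.9% of all control peaks; at protein-coding gene ends the values were 56.1% and 59.6%, and elsewhere 44.6% and 44.0%.

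Width went with presence in the Znhit1-CKO list. The median was 1440 bp for the 163 member peaks that a Znhit1-CKO peak overlapped and 588 bp for the 61 that none did. In width groups cut at the quartiles of all control peaks, the overlapped share of member peaks was 6 of 32 below 456 bp (18.8%), 12 of 29 from there to 742 bp (41.4%), 49 of 60 from 743 to 1225 bp (81.7%, 69.6 to 90.5%) and 96 of 103 at 1226 bp or more (93.2%, 86.5 to 97.2%). Over all control peaks the shares in the same groups were 16.8%, 30.5%, 58.0% and 91.9%. The intervals of the member peaks include the value of all peaks in the narrowest, the second and the widest group, and lie above it in the third. Position was not matched in these groups: 54.9% of member peaks and 15147 of all 48752 control peaks lay at protein-coding gene ends. Whether position accounts for the value in the third group was not tested.

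**Figure D2:**
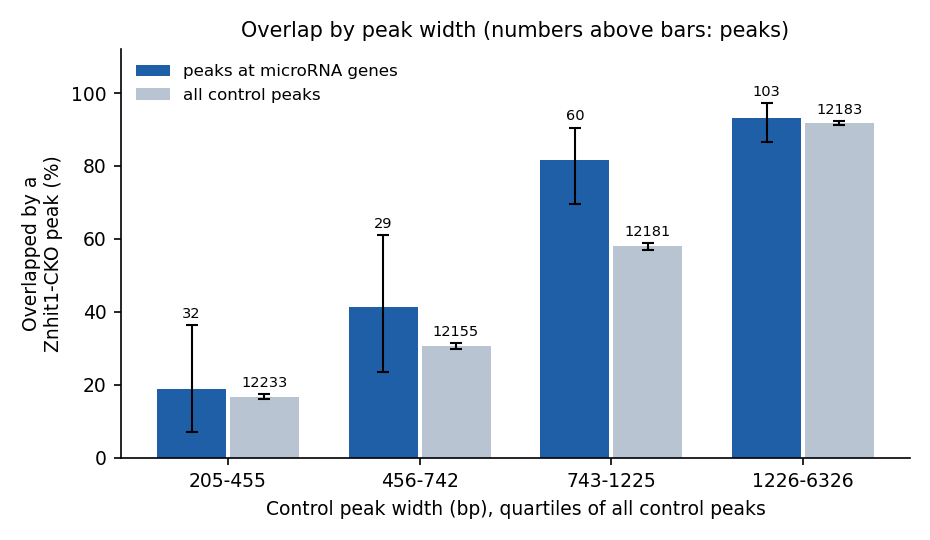
Share in percent of control peaks overlapped by a Znhit1-CKO peak, by width group of the control peak in bp, for peaks at microRNA genes and for all control peaks, with exact 95% intervals. At microRNA genes the share was 18.8% in the narrowest group and 93.2% in the widest, and in the third group it was 81.7% against 58.0% over all peaks. Position relative to protein-coding gene ends was not matched.

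Where 1 control and 1 Znhit1-CKO peak overlapped each other and no other peak, their widths were compared on the log2 scale, Znhit1-CKO relative to control. Member peaks gave 138 such pairs with a median of -0.26 (-0.36 to -0.21, range -2.47 to 1.00), and in 124 of them the peak in Znhit1-CKO was narrower (89.9%, 83.6 to 94.3%). Over all such pairs the median was -0.27, and 79.0% were narrower in Znhit1-CKO. At protein-coding gene ends the median of the member pairs was -0.23 (n = 88), with 93.2% narrower (85.7 to 97.5%) against 83.0% over all pairs at such ends. Elsewhere it was -0.37 (n = 50), with 84.0% narrower (70.9 to 92.8%) against 74.9%, a value inside that interval. The median width ratio at microRNA genes was close to that over all pairs, while a larger share of the pairs was narrower. The pairs were not matched for control peak width, so this share cannot be set apart from the greater width of member peaks.

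Among the pairs wider in Znhit1-CKO, the peak at Mir3968 was 296 bp in control and 594 bp in Znhit1-CKO, and that at Gm51288 473 and 751 bp; these were named after their values were seen. At Mir7654, which gives no such pair, 1 Znhit1-CKO peak of 1344 bp lay over 2 control peaks of 395 and 845 bp. More than 1 Znhit1-CKO peak overlapped 19 of the 163 shared member peaks (11.7%, 7.17 to 17.6%), against 6.94% of all shared control peaks.

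**Figure D3:**
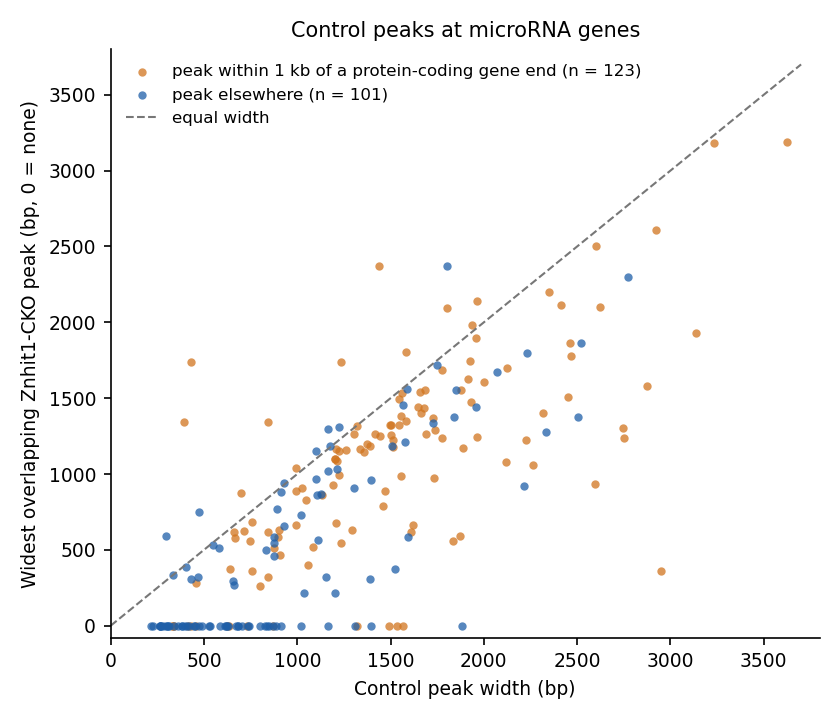
Width of each of the 224 control peaks at microRNA genes in bp (horizontal) against the width of the widest Znhit1-CKO peak that overlaps it in bp (vertical, 0 where none does), colored by whether the peak lies within 1 kb of a protein-coding gene's end (123) or elsewhere (101). The 61 peaks at 0 reach 1881 bp in control, and most of the others lie below the line of equal width.

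The 10 loci with the widest control peaks illustrate the upper end. Mir7655, inside Mllt10, had the widest control peak, 3627 bp, with 3191 bp in Znhit1-CKO and a differential region. At Mir7048, inside Dedd2, the widths were 3231 and 3182 bp, and at Mir1903, inside Nrp1, a receptor for semaphorins and VEGF, 2925 and 2611 bp. Mir193b, a microRNA hairpin in the noncoding gene Gm32817, had 2772 and 2297 bp, and Mir7238, inside Ankrd10, 2623 and 2100 bp. At these 5 loci the Znhit1-CKO peak covered at least 80.06% of the control peak.

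At 4 other wide loci the widest Znhit1-CKO peak was at most 1931 bp: Mir5103 with 3136 and 1931 bp, Mir688 with 2872 and 1582 bp beside Atp5g2, Mir8112 with 2751 and 1238 bp beside Krcc1, and Mir1956 with 2743 and 1305 bp inside Eif4e, the gene of the cap-binding translation factor. Counting every Znhit1-CKO peak over the control peak, 78.31 to 88.93% of the control peak was still covered at these 4 loci. Mir6935, inside the cytoplasmic actin gene Actg1, had a 2947 bp control peak and no Znhit1-CKO peak within 1 kb; Znhit1-CKO peaks farther out covered 20.77% of that control peak. Of these 10 loci, 9 had a Znhit1-CKO peak within 1 kb and 4 (Mir7655, Mir688, Mir1956 and Mir7238) a differential region. Over all member loci the shares were 73.4% and 50.3%.

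The members fall into 199 loci when microRNA genes no more than 10 kb apart are chained, of 943 loci over all microRNA genes. Of these loci 174 held 1 member, 22 held 2 and 3 held at least 3, and 146 had a Znhit1-CKO peak (73.4%, 66.7 to 79.4%). MicroRNA genes that stood alone had a control peak in 170 of 843 cases (20.2%), and those in loci of 5 or more microRNA genes in 8 of 184 (4.35%). Of the 10 loci with 5 or more microRNA genes, 1 had a member, the miR-290 cluster. The largest locus, with 72 microRNA genes on chromosome 2, had none, nor had the imprinted loci on chromosome 12 with 39 and 16 genes or the locus of 19 genes on the X chromosome. The 3 loci with at least 3 members, those of miR-290, Mir9-1 and Mir497, all lacked a Znhit1-CKO peak.

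The miR-290 cluster makes the main microRNAs of mouse pluripotent cells and early embryos, with the seeds shown above. Its control peak spanned 1564 bp (chr7:3218090-3219653) and served 8 of the 9 genes of the locus: Mir290a, Mir290b, Mir291a, Mir291b, Mir292, Mir292b, Mir293 and Mir294. Mir295, the last hairpin, lay 1120 bp from the peak and is no member. No Znhit1-CKO peak overlapped the control peak, and the nearest one was 14029 bp from Mir290a. A differential region lay over the control peak, within 1 kb of 6 of the 8 members. The peak covers the start of D7Ertd143e, and it also lies within 1 kb of an end of the coding gene Nlrp12, so the peak cannot be assigned to 1 of them.

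At the Mir9-1 locus, Mir9-1, Mir3093 and Gm25641 shared a control peak of 1881 bp (chr3:88214470-88216350), at the start of the noncoding gene Gm3764, with no Znhit1-CKO peak and with a differential region. All 3 hairpins lie in the peak, as does the Gm3764 start printed above. Mir497, Mir497b and Mir195a of the miR-15/16 family shared a narrow control peak of 339 bp (chr11:70233904-70234242), 450 to 800 bp from the hairpins, with neither a Znhit1-CKO peak nor a differential region. Mir497 and Mir497b are the 2 strands of 1 place, as are Mir290a and Mir290b, Mir292 and Mir292b, Mir9-1 and Gm25641, and Mir142 and Mir142b, and the 232 members occupy 219 separate hairpin positions.

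**Figure D4:**
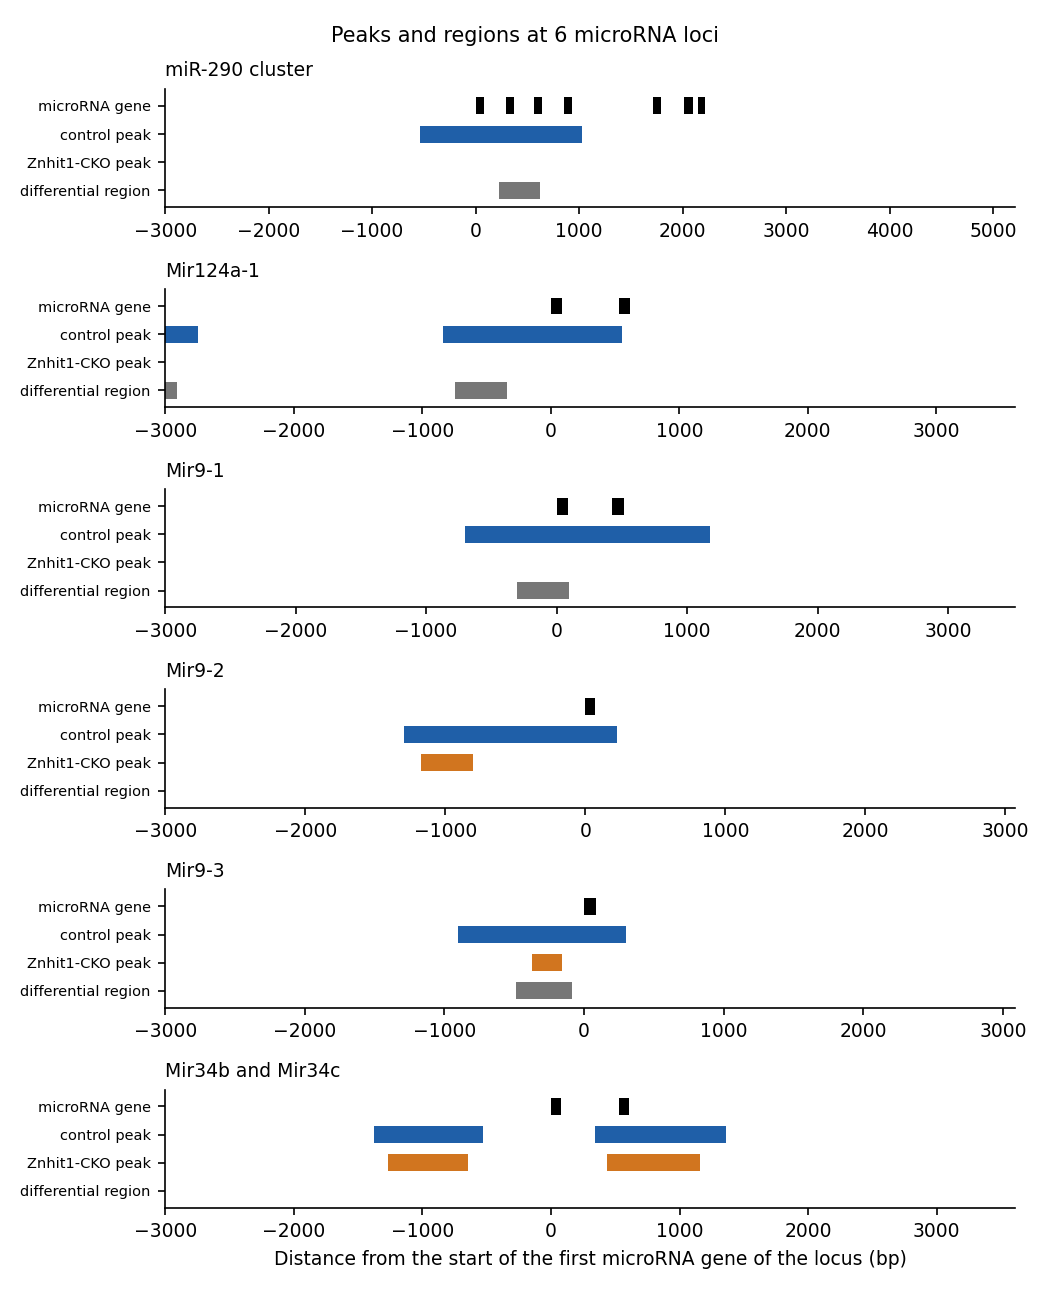
Maps of named microRNA loci, with distance in bp from the first microRNA gene on the horizontal axis and rows for microRNA genes, control peaks, Znhit1-CKO peaks and differential regions. The miR-290, Mir124a-1 and Mir9-1 loci have no Znhit1-CKO peak over the control peak, Mir9-2 and Mir9-3 have one of 375 and 217 bp, and at the Mir34b and Mir34c locus a Znhit1-CKO peak lies over each of the control peaks.

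Among members without a Znhit1-CKO peak, the 10 loci with the widest control peaks were led by Mir6935 (2947 bp) and Mir6976 (2217 bp), which lies in Srf, the gene of serum response factor. In both, and at Mir804 in Cby3 (1202 bp), Znhit1-CKO peaks overlapped the control peak beyond the 1 kb window, covering 20.77%, 65.49% and 89.52% of it. The same held for Mir5615-1, Mir5615-2 and Gm51295, so 6 of the 72 members without a Znhit1-CKO peak nearby (8.33%) had a control peak that was present in both lists. At the other 7 of these 10 loci no Znhit1-CKO peak overlapped the widest control peak: Mir9-1 (1881 bp), the miR-290 cluster (1564 bp), Mir8110 (1534 bp), Mir6409 in Gm5134 (1493 bp), Mir124a-1 with Mir3078 (1395 bp), Mir142 with Mir142b (1319 bp) and Mir137 (1167 bp). All 7 had a differential region within 1 kb of at least 1 member, and the 3 whose control peak was partly shared had none. Over all member loci 50.3% had a differential region, and over all control peaks of 1226 bp or more 67.4% did. Members with and without a Znhit1-CKO peak had one in similar shares, 50% and 52.8%. The contrast between these 7 and 3 loci was not tested. Mir142 is a microRNA known from blood cells; it had a second control peak of 1312 bp, also without a Znhit1-CKO peak.

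Lists of microRNA families and clusters known from germ cells, stem cells and other tissues hold 148 microRNA genes found in RefSeq, 30 of them with a control peak (20.3%, 14.1 to 27.7%, against 18.9% of all microRNA genes). Of these 30, 13 had a Znhit1-CKO peak (43.3%, 25.5 to 62.6%), against 69.0% of all members. The lists were chosen with earlier results of these data known. Genes that share a peak each count, as do the 5 listed genes on the miR-290 peak. This contrast is thus a description and was not tested. The lists differed in the shares with a control peak and with a Znhit1-CKO peak, and they are given in turn below.

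Neural microRNAs had the most members, 10 of 11 genes, against 18.9% of all microRNA genes. A differential region lay within 1 kb of 9 of the 10 (50.9% of all members, 60.1% of all genes with a control peak). A Znhit1-CKO peak lay within 1 kb of 5 (69.0% of all members, 78.7% of all genes with a control peak). miR-124, abundant in neurons, is made from 3 genes, each with control peaks and no Znhit1-CKO peak: the widest control peaks were 1395 bp at Mir124a-1, 736 bp at Mir124a-2 and 849 bp at Mir124a-3. Mir137, which acts in neuronal differentiation, had control peaks of 1167 and 526 bp and no Znhit1-CKO peak. miR-9, expressed in neural progenitors, also comes from 3 genes, all in noncoding hosts read from the same strand. Its control peaks were 1881 bp at Mir9-1, 1522 bp at Mir9-2 in C130071C03Rik and 1204 bp at Mir9-3 in Mir9-3hg, against no peak, 375 bp and 217 bp in Znhit1-CKO. The Znhit1-CKO peaks covered 24.64% of the control peak at Mir9-2 and 18.02% at Mir9-3. Mir132 and Mir212, a pair regulated by neuronal activity, shared a peak of 1591 bp in control and 585 bp in Znhit1-CKO. Mir219a-1 stood apart, with 1334 bp in control and 1162 bp in Znhit1-CKO (87.11% covered); it alone of the 10 lies within 1 kb of protein-coding gene ends, those of H2-Ke6 and Ring1. Mir9-2 was the 1 neural member with no differential region within 1 kb.

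Every member of the germ cell families miR-34 and miR-449, and of the let-7 and miR-200 families, had a Znhit1-CKO peak. These are 3, 1 and 2 genes, some on a shared peak. Over all members the share was 69.0%, and over all member loci 73.4%, so such small counts do not set these families apart. Of the miR-34 and miR-449 genes 3 of 6 were members. Mir34b and Mir34c lie inside Hoatz, read from the same strand, and Btg4, read from the other; they shared a control peak of 1019 bp (chr9:51103377-51104395), with 728 bp in Znhit1-CKO and no differential region. Mir34c had a second control peak of 841 bp, with 617 bp in Znhit1-CKO. Mir449c, in Cdc20b, had 1083 bp in control, 521 bp in Znhit1-CKO and a differential region. Mir449b and Mir449a lay 1604 and 1719 bp from that same peak, and Mir34a lay 1123 bp from a control peak of 749 bp that no Znhit1-CKO peak overlapped. Of the let-7 family, which acts in differentiation, 1 of 12 genes was a member, Mirlet7i, with 1959 bp in control and 1441 bp in Znhit1-CKO. Of the epithelial miR-200 family 2 of 5 were, Mir200c and Mir141, which shared a peak of 874 bp in control and 462 bp in Znhit1-CKO.

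Several lists had no member. None of the 15 genes of miR-17-92 and its paralogues, a family that promotes cell proliferation, had a control peak within 1 kb, but their median gap to one was 1815 bp: Mir17 lay 1181 bp from a control peak of 2508 bp, which was matched by a Znhit1-CKO peak of 2514 bp. Mir106a of its X-linked paralogue lay 1374 bp from a control peak of 1251 bp, which a Znhit1-CKO peak also overlapped. The 18 genes of the X-linked testis cluster and the 43 of the imprinted Dlk1-Dio3 cluster were far from control peaks, at median gaps of 147706 and 45697 bp. Of 4 microRNA genes known from spermatogonia, the nearest to a control peak was Mir21a, at 2459 bp. On the X chromosome as a whole 4 of 92 microRNA genes were members: Mir5132 and Mir718, which shared a peak of 993 bp in control and 662 bp in Znhit1-CKO, Mir7093 with 906 and 465 bp, and Mir5617 with 226 bp in control and no Znhit1-CKO peak.

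Hox cluster microRNAs lie between or inside the Hox genes and repress several of them. Their control peaks were 329 to 873 bp wide, against a median of 742 bp over all control peaks. Of 6 genes 5 were members, 2 with a Znhit1-CKO peak: Mir196a-1 with 873 bp in control and 587 bp in Znhit1-CKO, and Mir615, in Hoxc5, with 842 and 321 bp. Mir196b (433 bp), Mir196a-2 (416 bp) and Mir10a (329 bp) had none, and Mir10b lay 1083 bp from a control peak. A differential region lay within 1 kb of Mir615 and Mir196b, 2 of the 5 members. Over all members 50.9% had a differential region and 69.0% a Znhit1-CKO peak, and over all genes with a control peak 60.1% and 78.7%. Of 9 muscle microRNAs 2 were members, both in myosin heavy chain genes and both without a Znhit1-CKO peak: Mir208a in Myh6 with 801 bp and Mir499 in Myh7b with 396 bp. In the miR-15/16 family 2 of 8 genes were members, Mir195a and Mir497 with the 339 bp peak given above. Of 11 pluripotent cell microRNAs found, the 5 members were those of the miR-290 cluster, 3 with a differential region within 1 kb, while the Mir302a to Mir302d hairpins lay 6776 to 7164 bp from a control peak. Mir292, on the same miR-290 peak, is a member but is not in these list counts, because the list gave it as Mir292a, a symbol not found in the table.

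**Figure D5:**
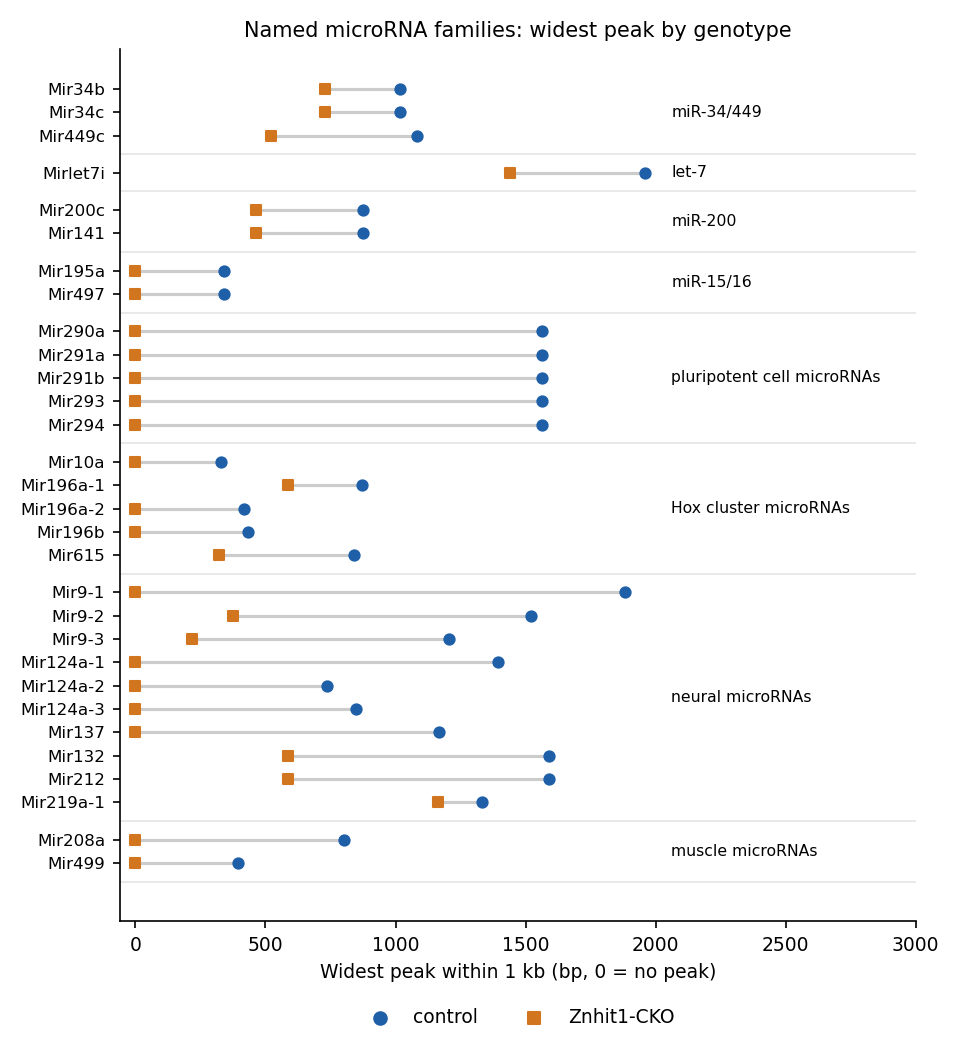
Peak width in bp at each microRNA gene of the lists that has a control peak, grouped by list, with a circle for the control peak and a square for the Znhit1-CKO peak, which stands at 0 where none was called. The 3 Mir124a genes, Mir137 and the miR-290 cluster genes have squares at 0, and the miR-34, miR-449, let-7 and miR-200 genes have squares between 462 and 1441 bp.

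Genes that make microRNAs with 1 seed did not all share the same outcome. Of 16 seeds found at 2 or more member loci, 6 had a Znhit1-CKO peak at every locus, 10 at some, and 0 at none. Over all member loci, whatever their seed, 73.4% had one. Whether loci with the same seed differ from other loci in this was not tested. Of the 10 mixed seeds 4 are arms from both strands of the miR-9 loci, 3 of them at all 3 loci and UCGGUUA at 2. The missing Znhit1-CKO peak at the Mir9-1 locus is thus counted 4 times. The 3 genes with the miR-196 seed AGGUAGU split 1 to 2, with a Znhit1-CKO peak at Mir196a-1 alone, although miR-196a-5p from Mir196a-1 and Mir196a-2 is the same molecule. The miR-9 seed CUUUGGU had 2 of 3, and CAGUAGU had Mir199a-2 (662 bp in control, 270 bp in Znhit1-CKO) but not Mir199b (685 bp in control). Both genes with ACUGGCC had one, Mir193a with 1750 bp in control and 1716 bp in Znhit1-CKO and Mir193b with the values above, as did both with CAGUGCA, Mir148a with 1729 and 1333 bp and Mir152, in Copz2, with 1514 and 1180 bp. Both loci with GGCAGUG, those of Mir34b and Mir449c, had one as well.

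Some measures of the sequence around the members varied with the outcome too. Hairpin sequences were found for 204 of the 232 members. Their median GC content was 58.3% in 140 members with a Znhit1-CKO peak, 49.7% in 64 without one, and 50.8% in 801 other microRNA genes. Hairpins were counted per gene, so those of 1 cluster, or on the 2 strands of 1 place, are not independent. Within 1 kb of protein-coding gene ends the medians were 64.0% (n = 71) with and 52.3% (n = 14) without, and farther away 54.1% (n = 69) and 48.6% (n = 50). For CG per 100 bases of hairpin, the medians in the same groups near gene ends were 6.58 with and 3.44 without. Farther away they were nearly equal, at 1.82 and 1.84. RefSeq transcription starts of 107 genes lay in 91 of the 224 member peaks (40.6%). The letters CG, which read the same on both strands, occurred at a median of 24 per 300-base promoter (range 1 to 53, n = 119) where a Znhit1-CKO peak overlapped the member peak and 14 (range 9 to 39, n = 7) where none did; a gene with several starts counts once for each. Over all control peaks the medians were 22 and 9, and the median over all RefSeq promoters was 7; at least 1 CG was found in 94.6% of these. How GC content, peak width and position each bear on the calls was not tested.

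The protein genes of the microRNA pathway mostly had peaks in both lists. Of 19 such genes 18 had a control peak within 1 kb of an end, 16 of these a Znhit1-CKO peak and 11 a differential region; among all protein-coding genes with a control peak 88.5% had a Znhit1-CKO peak and 62.8% a differential region. Widths in control and Znhit1-CKO were 1586 and 1287 bp at Drosha, 1244 and 1479 bp at Dgcr8, 1570 and 1420 bp at Xpo5, which exports the hairpin from the nucleus, 1836 and 1731 bp at Dicer1, and 2030 and 1998 bp at Ago2, the Argonaute that cuts target RNA. Lin28a, which blocks let-7 maturation and marks undifferentiated cells, had a control peak of 1338 bp and no Znhit1-CKO peak; its relative Lin28b had 1808 and 1213 bp. At Dis3l2, whose enzyme degrades let-7 precursors, the 1718 bp control peak was overlapped by a Znhit1-CKO peak of 1320 bp that lay beyond the 1 kb window.

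The 1 kb limit passed between near neighbours. Just inside it were Mir5615-1, 940 bp from a peak, and Mir294, at 988 bp; just outside were Mir22, at 1029 bp, and Mir6919, at 1031 bp. A further 80 microRNA genes lay more than 1 kb and at most 2 kb from a control peak.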

How the data were processed

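The authors deposited 3 lists of regions from H2A.Z ChIP-seq of control and Znhit1-CKO testes at postnatal day 14, each giving other values than counts: a chromosome, a start and an end, with no score, fold or p. The submitters' processing notes name the build mm10 and MACS2 2.2.4, BWA 0.7.17, Picard 2.20.7, cutadapt 2.5 and SAMtools 1.9, with no role or order. Not given in the sources used here are how peaks were thresholded, whether replicates were pooled, and how differential regions were called. Reads per library cannot be read from these lists, so their depth is unknown and a peak missing from a list is not evidence of absent signal. Width stands where a peak's strength had been planned, and starts count from 1. Gene positions are those of RefSeq on GRCm38.p6, which here gives no exons or strand; strands came from the RefSeq sequence tables, where present. A peak lay at a gene when it came within 1 kb of either end, peaks were shared when they overlapped by at least 1 bp, and microRNA genes at most 10 kb apart were chained into a locus. The members, lists and comparisons were chosen with earlier results of these data known. Named genes are the 10 loci with the widest control peak, the 10 widest with no Znhit1-CKO peak, loci with at least 3 members, list members, pathway genes without a Znhit1-CKO peak and the 2 nearest genes on each side of the limit; others were chosen after their values were seen. Of 169 listed symbols 167 were found. Alternatives were windows of 500 bp and 2 kb, peaks of at least 500 bp, loci, an overlap of 50% of both peaks, and chaining at 5 and 50 kb. Overlaps were checked against bedtools 2.31.1 (0 differing counts over 48752 control peaks) and on 200 planted microRNA genes (0 wrong). The scripts used pandas 2.3.3, numpy 2.4.6, matplotlib 3.10.9 and scipy 1.17.1 under Python 3.11.15.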

Additional observations from a re-analysis of the deposited data

How the results depend on the processing

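Of 26 alternative settings 21 left the value within its interval or count limit, 5 moved it and 0 reversed it. Among these results only the width ratio has a sign, so for the others a reversal could not occur. The share of members with a Znhit1-CKO peak, 69.0%, was 57.3% when a control and a Znhit1-CKO peak had to overlap by 50% of both, and over the other planned settings it lay between 67.6 and 73.4%. It was 58.4% for members away from protein-coding gene ends and 84.2% for those near them, a split chosen after seeing the data, as was counting overlapping hairpins once (219 members). The share with a differential region, 50.9%, was 44.2% with a window of 500 bp. The share inside a host gene, 70.7%, was 59.9% with protein-coding hosts alone, which follows from leaving out the lncRNA hosts; for the window of 500 bp the cause was not tested. With windows of 500 bp and 2 kb the members numbered 197 and 312, against 232 as reported. The count limit was wide enough to label both as unchanged, so these labels say little about the number of members. No paired analysis was possible because each genotype has 1 list with no value per replicate, and for the same reason no replicate could be left out. The unknown depth and peak threshold limit every statement that no peak was called, most of all for narrow peaks.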

Other observations

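A further 10 microRNA genes (0.814% of 1228, exact 95% interval 0.391 to 1.49%) had a Znhit1-CKO peak within 1 kb and no control peak: Mir3962, Mir7074, Mir100, Mir3109, Mir598, Mir802, Mir7214, Mir7217, Mir6715 and Mir3086. Their Znhit1-CKO peaks were narrow, from 188 bp at Mir7074 to 535 bp at Mir7214. The nearest control peak lay 2446 bp away at Mir3109 and 3717 bp away at Mir100, a microRNA encoded near let-7 and miR-125 genes, and 57044 bp away at Mir3962. A differential region lay within 1 kb of Mir7214 and Mir7217. Mir7687, inside Gse1, had 3 control peaks in its window, of 913, 448 and 360 bp, and no Znhit1-CKO peak. Mir12181, inside Coro6, was the 1 member of 160 whose Znhit1-CKO peak (311 bp) did not overlap its widest control peak (682 bp); it overlapped a second control peak of 428 bp. Members were spread unevenly over chromosomes, with 30 of 88 microRNA genes on chromosome 11 (34.1%) and 4 of 92 on the X chromosome (4.35%).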
